A study of Mus musculus with 335 samples.

Results

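The cultured mouse mammary tumour lines 6DT1, Mvt1, Met1 and M6 were compared by RNA-seq while growing in tissue culture, each line against the other 3. The libraries were chosen by their labels, as the tissue culture samples of these lines, and number 12 of the 335 samples of the series, with 3 for each line. The series pairs primary mammary tumours with their metastases in mouse models, and the cultured libraries hold the tumour cells without the tissue of a host. All libraries were from untreated cells. The oncogenic driver was labelled cMYC for 6DT1, cMYC / VEGF for Mvt1, PyMT for Met1 and SV40T for M6, and the promoter that drives each was not given in the sources used here. The strain was labelled FVB for Mvt1, Met1 and isolations 1 and 2 of 6DT1, and BALB for isolation 3 of 6DT1 and for the 3 M6 libraries, so the strain label of 6DT1 is not uniform. The 3 libraries of a line were numbered as isolations 1 to 3 of that line, and nothing in the labels says that they came from separate cultures. The p-values therefore measure the spread between these isolations, which may be technical, and a line stands for itself and not for its driver.

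MYC is a transcription factor that drives growth and ribosome synthesis, VEGF is a secreted signal for blood vessel growth, the polyoma middle T antigen (PyMT) recruits kinases at the membrane, and the SV40 large T antigen binds the RB and p53 proteins. RB holds the E2F factors in check, and E2F factors switch on the genes of DNA replication. Mammary tumour cells can carry luminal traits (simple keratins, tight and adherens junctions), basal traits (the keratins of the outer cell layer) or mesenchymal traits (vimentin, ZEB1), and the loss of E-cadherin and EpCAM with a gain of vimentin is known as epithelial to mesenchymal transition.

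Values are the deposited RPKM (reads scaled to gene length and library depth), and 23496960 to 33706047 counted reads per cultured library were recovered from the steps between low values. Genes with an RPKM of at least 1 in 3 of the 12 libraries were tested, 11189 in all. Differences are on the log2(RPKM + 1) scale, as the line minus the mean of the other 3 lines, with a standard error and an adjusted p from limma, and a gene is called where that p is under 0.05. This scale understates the change of genes with low levels. A value of 0 means only that a gene is listed at 0, since Hmgcs1, a gene of sterol synthesis that dividing cells use, was also listed at 0 in all 12 libraries. Libraries of the same line correlated at r = 0.965 to 0.997 over the tested genes. Correlations between lines were 0.924 to 0.936 for 6DT1 with Mvt1, 0.831 to 0.877 for Met1 with M6, and 0.743 to 0.803 for either of the first pair with either of the second. The titles carry one code for isolations 1 and 2 of 6DT1, Mvt1 and Met1, and another for their isolation 3 and for all of M6. What that code marks is not given, and counts within the second code (1 library each of 6DT1, Mvt1 and Met1, where the lone library is assumed to vary like those of M6) are given beside the gene groups whose counts they lower by over 1.5 times.

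The labelled drivers came first as a check. Myc was at 333, 378 and 377 RPKM in 6DT1 and at 346, 344 and 465 RPKM in Mvt1. It was at 37.6, 56.9 and 53.8 RPKM in Met1 and at 58.9, 36.5 and 44.9 RPKM in M6. Every library of the lines labelled cMYC lay above every library of the other lines, and 6DT1 and Mvt1 overlapped. The difference was 1.92 ± 0.16 (adjusted p = 7.9e-07) for 6DT1 and 2.01 ± 0.16 (adjusted p = 5.4e-07) for Mvt1, and 0.07 ± 0.20 (adjusted p = 0.82) for Mvt1 minus 6DT1. Vegfa, the ligand named in the Mvt1 label, was at 7.86, 11.7 and 13.0 RPKM in Mvt1, against 22.7, 19.7 and 17.2 RPKM in 6DT1, 40.2, 42.8 and 32.6 RPKM in Met1 and 47.7, 23.2 and 31.0 RPKM in M6. Mvt1 was the lowest of the lines, with no overlap (-1.37 ± 0.20, adjusted p = 8.4e-05), and this call was lost within the second title code (-0.97, adjusted p = 0.096). Whether reads from a Vegf transgene were counted under this gene was not given in the sources used here. The PyMT and SV40T transcripts were not analysed here.

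In cultured cells, the high Myc level was not matched by a common rise of the 22 Myc target and ribosome biogenesis genes that were listed. In 6DT1, 4 of the 22 rose and 3 fell, where 25.8% of all tested genes were higher and 31.9% lower. In Mvt1, 3 rose and 9 fell, where 25.3% were higher and 38.5% lower. In Met1, 9 rose and 4 fell, where 29.0% were higher and 25.6% lower, and in M6, 5 rose and 7 fell, where 38.1% were higher and 30.8% lower. The medians of the list were -0.02, -0.09, 0.25 and -0.25 in 6DT1, Mvt1, Met1 and M6, against -0.05, -0.11, 0.02 and 0.07 over all tested genes. Of the 22, 5 rose in Met1, 3 rose and 5 fell in M6 and 2 fell in Mvt1 within the second title code, and the other calls were lost. In orthotopic tumours of these lines the same genes were higher in 6DT1, with counts given with the tumours.

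The main division ran between 6DT1 with Mvt1 and Met1 with M6. Both lines of the first pair lay at least 2-fold above both of the second, with no overlap of libraries, at 448 genes (4.0% of those tested), and at least 2-fold below them at 535 genes (4.78%). The 2 other ways of pairing the lines gave 12 (0.107%) and 11 (0.0983%) genes for 6DT1 with Met1, and 23 (0.206%) and 64 (0.572%) for 6DT1 with M6. Among the lower genes was Cdkn2a, the locus of the cell cycle brakes INK4A and ARF, which act through RB and p53. It was listed at 0, 0 and 0.0913 RPKM in 6DT1 and 0, 0 and 0.148 RPKM in Mvt1, against 65.9, 52.3 and 57 RPKM in Met1 and 39.0, 44.8 and 115 RPKM in M6. Every library of the first pair lay below every library of the second. Its neighbour Cdkn2b, another brake on the cyclin D kinases, was listed at 0 to 0.0184 RPKM in the 6 libraries of 6DT1 and Mvt1 and at 8.30 to 18.0 RPKM in the 6 libraries of Met1 and M6.

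A list of cell cycle genes held brakes together with Mdm2 and the cyclins Ccnd1, Ccnd2 and Ccne1, which are not brakes. Of its 12 tested genes, 7 fell and 1 rose in 6DT1, and 6 fell and 2 rose in Mvt1. In Met1 7 rose and 3 fell, and in M6 5 rose and 2 fell. Ccnd1 and Ccnd2 were among the genes that rose in Met1, and Ccne1 was among those that rose in M6. The shares of all genes were 31.9% and 38.5% lower and 29.0% and 38.1% higher, so the M6 count was near the share of all genes. Of 11 tested within the second title code, 3 fell in 6DT1 and 4 rose in Met1. The low values of Cdkn2a and Cdkn2b were shared by neighbours on chromosome 4, looked at after the values of Cdkn2a were seen. In the gene order of RefSeq GRCm38.p6, 31 genes of the table lie between Mllt3 and Plaa. Of these, 7 were tested, and a gene could pass that filter through the lines where it was high, so they are a description. In gene order, Klhl9, Gm13275, Mir31, Mtap, Cdkn2a and Cdkn2b were each at 0.231 RPKM or less in every 6DT1 and Mvt1 library and higher in every Met1 and M6 library. Tusc1, between Cdkn2b and Plaa, ran the other way, at 2.60 to 3.93 RPKM in 6DT1, 2.72 to 5.35 RPKM in Mvt1, 0.0513 to 0.269 RPKM in Met1 and 0.0192 RPKM or less in M6, so the low levels of 6DT1 and Mvt1 did not extend to it. Mtap, the enzyme that salvages methionine from methylthioadenosine, was at 0, 0 and 0.231 RPKM in 6DT1, 0.0249, 0.0587 and 0.0937 RPKM in Mvt1, 109, 119 and 77.3 RPKM in Met1 and 23.3, 32.5 and 34.7 RPKM in M6. Klhl9, a ubiquitin ligase adaptor, was at 0 to 0.0857 RPKM in the 6 libraries of 6DT1 and Mvt1 and at 13.0 to 16.9 RPKM in the others. The genes at either edge were present in all 12 libraries. Mllt3 lay at 10.8 to 12.3 RPKM in 6DT1 and 9.99 to 10.9 RPKM in Mvt1, and Plaa at 9.07 to 12.5 RPKM in both. The predicted gene Gm13275 was at 0.0312 RPKM or less in 6DT1 and Mvt1 and 0.918 to 1.9 RPKM in Met1 and M6. The other 24 genes did not reach the level needed for testing. DNA data were not used here.

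**Figure D1:**
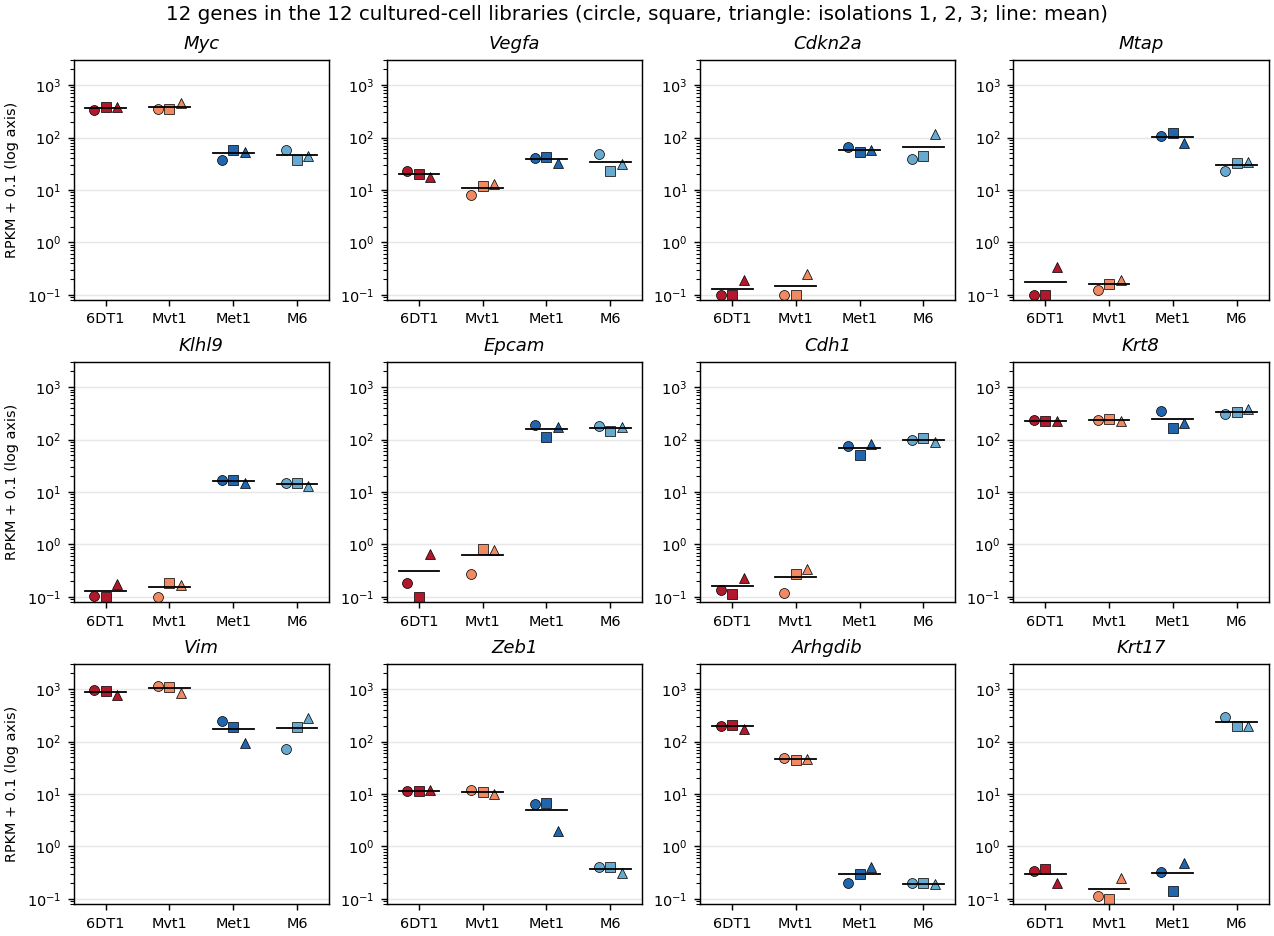
RPKM (log axis, 0.1 added to show zeros) of 12 genes in the 12 cultured libraries of 6DT1, Mvt1, Met1 and M6; circles, squares and triangles are isolations 1, 2 and 3 and bars are line means. Myc lies between 333 and 465 in 6DT1 and Mvt1 and between 36.5 and 58.9 in Met1 and M6. Cdkn2a, Mtap, Klhl9, Epcam and Cdh1 lie near 0 in the first pair, and Krt8 is present in every line. Krt17 marks M6, while Arhgdib is highest in 6DT1, lower in Mvt1 and near 0 in Met1 and M6.

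The same division ran through the epithelial genes. Cdh1, which encodes E-cadherin, was at 0.0353, 0.0151 and 0.130 RPKM in 6DT1, 0.0181, 0.170 and 0.241 RPKM in Mvt1, 74.7, 50.9 and 83.3 RPKM in Met1 and 97.7, 106 and 90.0 RPKM in M6. Epcam, an epithelial adhesion molecule, was at 0 to 0.731 RPKM in the first pair and at 110 to 190 RPKM in the second. Neither gene overlapped between the pairs. Of 21 luminal keratin and junction genes, 17 fell in 6DT1 (median -2.77) and 17 in Mvt1 (-2.53), while 15 rose in Met1 (2.06) and 18 in M6 (3.35). In the opposite direction, 2 rose in 6DT1 and 1 in Mvt1, and 1 fell in Met1 and 2 in M6. Of all genes, 31.9% and 38.5% were lower in 6DT1 and Mvt1, and 29.0% and 38.1% higher in Met1 and M6. At 14 of the 21, both 6DT1 and Mvt1 were at least 2-fold below Met1 and M6 without overlap. The regulators of epithelial identity went with them. Of 9 tested regulators, 8 fell and 1 rose in 6DT1, 9 fell in Mvt1, and 9 rose in Met1 and 8 in M6. The shares of all genes are those given for the luminal genes. Esrp1, a splicing factor of epithelial cells, was at 0 to 0.142 RPKM in the first pair and 30.4 to 49.8 RPKM in the second. Grhl2, which holds the epithelial state, was at 0.0176 to 0.193 RPKM and 10.4 to 20.3 RPKM.

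The keratins Krt8 and Krt18 were kept. Krt8 was at 241, 224 and 223 RPKM in 6DT1, 238, 246 and 222 RPKM in Mvt1, 353, 169 and 211 RPKM in Met1 and 308, 333 and 381 RPKM in M6. The ranges of 6DT1, Mvt1 and Met1 overlapped, and M6 was higher than the mean of the others by 0.54 ± 0.17 (adjusted p = 0.013). Krt18, its partner in the filament, lay at 254 to 267 RPKM in 6DT1, 139 to 174 RPKM in Mvt1, 271 to 372 RPKM in Met1 and 350 to 534 RPKM in M6. Krt7, by contrast, was at 0.0601 to 2.14 RPKM in the first pair and 147 to 249 RPKM in the second. Of 9 mammary epithelium markers, 3 were at 1 RPKM or more in every 6DT1 library, 4 in every Mvt1 library, 7 in every Met1 library and 9 in every M6 library.

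Mesenchymal genes did not split the lines as cleanly. Vim, the mesenchymal filament gene, was at 972, 941 and 772 RPKM in 6DT1, 1145, 1105 and 856 RPKM in Mvt1, 247, 191 and 96.0 RPKM in Met1 and 72.4, 194 and 283 RPKM in M6. Zeb1, a repressor of Cdh1, was at 9.85 to 12.0 RPKM in 6DT1 and Mvt1, 6.31, 6.56 and 1.89 RPKM in Met1 and 0.213 to 0.312 RPKM in M6. Both genes were highest in 6DT1 and Mvt1 without overlap. Snai2, another such repressor, ran the other way, at 0.0567 to 0.166 RPKM in 6DT1 and Mvt1, 2.61 to 7.23 RPKM in Met1 and 1.2 to 5.09 RPKM in M6. Over 14 tested mesenchymal genes, 8 rose and 5 fell in 6DT1, 6 and 7 in Mvt1, 7 and 5 in Met1, and 5 and 8 in M6. Of all genes, 25.8% were higher and 31.9% lower in 6DT1, and 25.3% and 38.5% in Mvt1. The shares were 29.0% and 25.6% in Met1 and 38.1% and 30.8% in M6, so the higher count in M6 was near its share. The mesenchymal counts were 5 and 2, 2 and 4, 4 and 2, and 4 and 4 within the second title code, where 12 were tested.

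Repressors of the ZEB and SNAIL families bind E-box sequences, and 3 promoters are shown because their genes split (Epcam, Cldn4) or were kept (Krt8) between the pairs. They are the 250 bases before the RefSeq start in GRCm38.p6, chr17:87635729-87635978 on the plus strand for Epcam, chr5:134946935-134947184 on the minus strand for Cldn4 and chr15:102004343-102004592 on the minus strand for Krt8. Capitals mark CACCTG or, on the other strand, CAGGTG.
Epcam: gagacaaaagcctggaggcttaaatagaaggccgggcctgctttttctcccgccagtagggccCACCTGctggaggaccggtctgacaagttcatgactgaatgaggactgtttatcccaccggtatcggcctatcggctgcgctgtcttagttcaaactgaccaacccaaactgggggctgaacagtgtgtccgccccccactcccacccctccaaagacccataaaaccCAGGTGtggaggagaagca
Cldn4: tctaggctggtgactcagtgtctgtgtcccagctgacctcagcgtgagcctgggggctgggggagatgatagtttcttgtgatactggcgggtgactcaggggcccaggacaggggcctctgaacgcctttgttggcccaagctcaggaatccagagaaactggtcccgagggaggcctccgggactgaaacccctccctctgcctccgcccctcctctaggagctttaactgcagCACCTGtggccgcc
Krt8: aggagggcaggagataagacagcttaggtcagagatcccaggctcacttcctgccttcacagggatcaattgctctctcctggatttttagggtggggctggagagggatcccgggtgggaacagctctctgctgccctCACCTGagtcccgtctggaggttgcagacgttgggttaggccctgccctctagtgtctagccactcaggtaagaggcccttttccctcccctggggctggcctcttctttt
Cldn4, a tight junction gene, was at 0.0435 to 1.57 RPKM in the first pair and 17.8 to 76.3 RPKM in the second. The motif was in 9 of 14 list genes with a listed promoter, counting a gene if any of its promoters matched. It was in 17.2% of all 32851 promoters, each counted singly. The kept gene Krt8 holds the motif as the split genes do. A match is a stretch of letters and not a measured site.

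6DT1 was set apart by 163 higher genes (1.46% of those tested) and 127 lower genes (1.14%), counting those called, at least 2-fold from each other line, and without overlap. Arhgdib, a regulator of small GTPases known from blood cells, led the higher genes. It was at 203, 208 and 177 RPKM in 6DT1, 47.7, 44.8 and 46.5 RPKM in Mvt1 and 0.0893 to 0.298 RPKM in Met1 and M6 (5.63 ± 0.08, adjusted p = 3.9e-13). The integrin subunit Itgb7 was at 68.5, 69.3 and 68.5 RPKM in 6DT1, 10.2 to 12.7 RPKM in Mvt1 and 0.530 RPKM or less elsewhere, and the leukocyte integrin subunit Itgb2 was at 70.7, 72.3 and 68.4 RPKM in 6DT1 and 7.06 to 23.3 RPKM in Mvt1. The adaptor Lat2 (31.2 to 35.5 RPKM), the phosphatase Ptpn7 (50.3 to 69.6 RPKM) and the adhesion molecule Selp (17.4 to 19.9 RPKM) were in the same group.

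These are genes best known from blood cells, so leukocyte genes were read beside them. The summed level of 8 leukocyte markers was 38.2 to 51.1 RPKM in 6DT1, 5.83 to 14.3 RPKM in Mvt1, 3.23 to 6.85 RPKM in Met1 and 3.86 to 8.05 RPKM in M6, with 1 of the 8 at 1 RPKM or more in every library of each line. Ptprc, the CD45 gene that defines leukocytes, was at 0, 0.00690 and 0.0560 RPKM in the 6DT1 libraries and at 0.0599 RPKM or less in the others. Ikzf1 (0 to 0.0265 RPKM in 6DT1) and Itgal (0.0192 to 0.0338 RPKM) were near 0 as well. Lcp1, an actin bundling protein of leukocytes, was at 25.4, 25.7 and 26.8 RPKM in 6DT1 and 9.93 to 13.6 RPKM in Mvt1, and Il2rg, a shared cytokine receptor chain, at 33.7 to 34.9 RPKM and 20.5 to 24.1 RPKM. Both were at 1.19 RPKM or less in Met1 and M6. In bulk libraries a few cells with a high level and many with a low level cannot be told apart.

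Other genes raised in 6DT1 were the matrix protease Mmp3 (62.7, 58.4 and 56.1 RPKM, against 0.141 to 10.4 RPKM elsewhere), the creatine kinase Ckb (48.6 to 60.5 RPKM), the leptin receptor Lepr (13.2 to 17.4 RPKM) and the secretory granule protein Ptprn (34.9 to 44.0 RPKM). Among the 10 largest falls in 6DT1 were Fos, Egr1 and Cyr61. Fos, a part of AP-1, was at 0.319, 0.186 and 0.325 RPKM in 6DT1, against 144, 183 and 183 RPKM in Mvt1, 142, 41.1 and 39.4 RPKM in Met1 and 44.5, 26.1 and 59.9 RPKM in M6. Every 6DT1 library lay far below every other (-5.91 ± 0.35, adjusted p = 7.8e-08). Egr1, an early response factor, was at 0.533, 0.418 and 0.746 RPKM in 6DT1 and 29.9 to 102 RPKM elsewhere. Cyr61, a secreted matrix protein that YAP induces, was at 5.57, 6.81 and 5.84 RPKM in 6DT1 and 48.2 to 687 RPKM elsewhere. Of 9 tested YAP target genes, 7 fell and 2 rose in 6DT1 (median -1.53), where 31.9% of all genes were lower and 25.8% higher. Ceruloplasmin (Cp, 0.0953 to 0.496 RPKM) and the activin subunit Inhbb (0.168 to 0.247 RPKM) were also near 0 in 6DT1, against 11.3 RPKM or more in every other library.

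Mvt1 was set apart by 165 higher genes (1.47%) and 118 lower genes (1.05%). The lower genes held most of the amino acid stress response, the program by which ATF4 raises amino acid synthesis and import. Of its 16 tested genes, 15 fell and 0 rose (median -1.76), where 38.5% of all genes were lower and 25.3% higher. Among the 16, 13 were set apart, and in each of the 3 isolations 15 members lay below every library of the other lines. Mthfd2, the mitochondrial folate enzyme, was at 3.08, 1.54 and 1.84 RPKM in Mvt1, against 102, 92.6 and 82.9 RPKM in 6DT1, 48.1, 85.1 and 108 RPKM in Met1 and 128, 93.2 and 110 RPKM in M6 (-4.91 ± 0.22, adjusted p = 7.1e-09). Asns, asparagine synthetase, was at 14.6, 13.3 and 14.7 RPKM in Mvt1, 179, 160 and 139 RPKM in 6DT1, 65.2, 117 and 132 RPKM in Met1 and 211, 124 and 151 RPKM in M6 (-3.17 ± 0.20, adjusted p = 9.9e-08). Mvt1 did not overlap any other line at either gene. Chac1, which breaks down glutathione, was at 0.643 to 1.16 RPKM in Mvt1 and 13.0 to 39.5 RPKM elsewhere. Atf4 itself was at 72.5, 66.3 and 58.1 RPKM in Mvt1 and at 133 RPKM or more in every other library. Within the second title code, 12 of the 16 were called lower.

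The ATF4 complex binds a composite of a C/EBP and an ATF site, and the promoters of Asns and Chac1 are shown as the members with the clearest fall that hold its letters. They are chr6:7693210-7693459 on the minus strand and chr2:119350992-119351241 on the plus strand, 250 bases before the RefSeq start in GRCm38.p6. Capitals mark TGATGNAAN or, on the other strand, NTTNCATCA.
Asns: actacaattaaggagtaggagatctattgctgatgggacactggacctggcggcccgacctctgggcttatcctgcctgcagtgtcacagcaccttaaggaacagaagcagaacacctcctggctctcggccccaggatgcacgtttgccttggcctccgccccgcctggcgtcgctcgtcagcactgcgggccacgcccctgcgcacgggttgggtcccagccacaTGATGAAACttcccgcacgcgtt
Chac1: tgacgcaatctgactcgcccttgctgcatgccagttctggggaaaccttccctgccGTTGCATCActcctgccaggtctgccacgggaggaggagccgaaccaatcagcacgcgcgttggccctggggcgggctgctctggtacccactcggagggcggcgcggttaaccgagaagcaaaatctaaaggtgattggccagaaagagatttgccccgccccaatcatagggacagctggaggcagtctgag
The motif was in 3 of 14 list genes with a listed promoter and in 3.44% of all 32851.

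Proliferation genes were low in Mvt1 against the mean of the other lines, which holds the high values of M6. All 24 E2F and S phase genes fell (median -1.36) and 14 of 16 mitosis genes fell (median -1.06), where 38.5% of all genes did. Against 6DT1 alone, 12 of the 24 and 2 of the 16 fell (medians -0.69 and -0.70), where 19.9% of all genes fell. The mitosis count was thus below the share of all genes, and the calls of both lists were lost within the second title code. The isolations differed as well, with E2F list medians of -0.82, -1.76 and -1.43 and 5, 23 and 21 of the 24 members below every library of the other lines, so isolation 1 overlapped the other lines at most members. The mitosis medians were -0.27, -1.52 and -1.46, with 0, 16 and 16 of the 16 members below every other line. Mki67, the proliferation antigen, was at 14.4, 6.78 and 6.87 RPKM in Mvt1, against 14.3 to 26.7 RPKM in 6DT1. Of 17 cytoplasmic ribosomal protein genes, 15 rose (median 0.59), but 1 was called within the second title code (median 0.64). Rpl3 was at 875, 1076 and 1108 RPKM in Mvt1, 705 to 804 RPKM in 6DT1, 457 to 531 RPKM in Met1 and 434 to 491 RPKM in M6. Of 17 tested p53 target genes, 9 rose and 3 fell in Mvt1 (median 0.59), where 25.3% of all genes were higher and 38.5% lower. Within the second title code, 5 rose and 1 fell. Bax, the pore former of apoptosis, was among the higher genes, at 70.7, 107 and 103 RPKM in Mvt1. It was at 59.4 to 66.6 RPKM in 6DT1 and 30.0 to 39.3 RPKM in Met1 and M6. Trp53 was called in none of the lines, though without isolation 3 of 6DT1 it was called lower in Mvt1 (-0.27, adjusted p = 0.020).

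Single genes also marked Mvt1. The receptor kinase Axl was at 0.554, 0.439 and 0.655 RPKM in Mvt1, 44.8 to 49.7 RPKM in 6DT1, 31.8 to 50.4 RPKM in Met1 and 17.4 to 25.5 RPKM in M6 (-4.55 ± 0.14, adjusted p = 2.2e-10). Cdcp1, a membrane partner of SRC kinases, was at 0.00670 to 0.0671 RPKM in Mvt1 and 5.11 RPKM or more elsewhere. The mucin-like antigen gene Cd24a was at 1.56 to 1.79 RPKM in Mvt1, 4.71 to 6.29 RPKM in 6DT1 and 116 to 271 RPKM in Met1 and M6. Among the highest genes was Srgn, the proteoglycan core of secretory granules, at 84.1, 122 and 95.2 RPKM (22.3 to 30.6 RPKM in 6DT1 and 0.677 RPKM or less in Met1 and M6). The linker histone gene Hist1h1c was at 133, 176 and 151 RPKM and the metabolic enzyme gene Selenbp1 at 42.8, 37.1 and 31.3 RPKM.

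The lines labelled cMYC and cMYC / VEGF were then compared with each other. In Mvt1 against 6DT1, 1761 genes rose and 2223 fell, and 479 (4.28%) and 456 (4.08%) did so by at least 2-fold without overlap. Fos gave the largest difference, 7.06 ± 0.43 (adjusted p = 3.7e-07), from the values given above. Cyr61 was at 497, 687 and 530 RPKM in Mvt1 and 5.57 to 6.81 RPKM in 6DT1 (6.33 ± 0.24, adjusted p = 6.0e-09), and 7 of 9 YAP target genes rose and 1 fell, where 15.7% of all genes were higher and 19.9% lower. Of the 9, 4 rose and 1 fell within the second title code. Btg2, an antiproliferative early gene, was at 61.9, 116 and 102 RPKM against 2.29 to 3.60 RPKM. On the lower side, all 16 amino acid stress genes fell (median -1.92), of which 6 were called within the second title code. Axl fell by 4.96 ± 0.17 (adjusted p = 2.7e-09) and Mthfd2 by 4.91 ± 0.26 (adjusted p = 1.3e-07). Ripk3, a kinase of necroptosis, was at 14.8 to 18.3 RPKM in 6DT1 and 0.0212 RPKM or less in Mvt1. Of 12 tested genes of MHC class I and antigen processing, 7 rose and 0 fell in Mvt1 against 6DT1 (median 1.10), with 3 called within the second title code. Fosb, Hes1, Aldh1l2 and Cth were among the 10 largest differences each way and lost their call within the second title code (adjusted p = 0.17, 0.091, 0.12 and 0.28), with differences of 4.94, 4.05, -3.78 and -3.27 there.

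**Figure D2:**
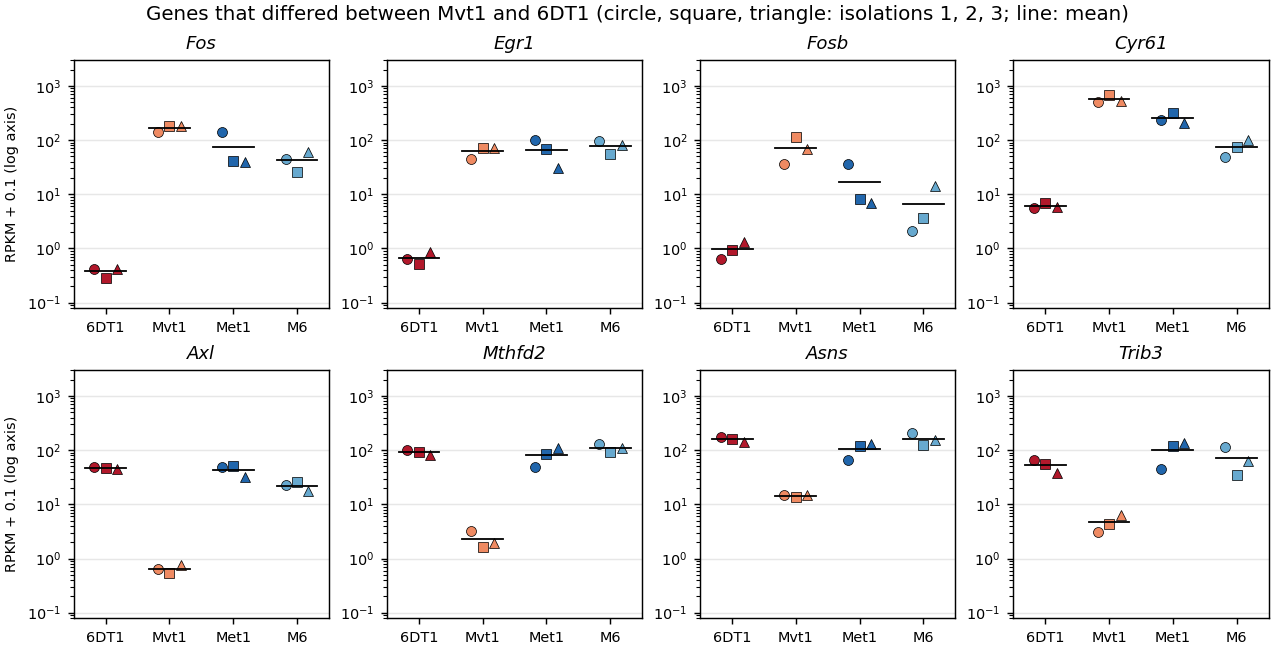
RPKM (log axis, 0.1 added) of 8 genes in the 12 libraries; circles, squares and triangles are isolations 1, 2 and 3 and bars are line means. Fos, Egr1, Fosb and Cyr61 are low in 6DT1, and Axl, Mthfd2, Asns and Trib3 are low in Mvt1, without overlap with any other line.

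Met1 was set apart by 389 higher genes (3.48%) and 147 lower genes (1.31%). All 24 tested interferon-stimulated genes rose in Met1, where 29.0% of all genes did, and 17 were set apart (median 2.49). Interferons are secreted on viral or nucleic acid sensing, and their receptors switch these genes on through transcription factors that include STAT2 and IRF9. Ifit1, which blocks translation of foreign RNA, was at 53.2, 32.1 and 7.95 RPKM in Met1, 0.291 to 0.353 RPKM in 6DT1, 0.401 to 0.458 RPKM in Mvt1 and 1.18 to 1.61 RPKM in M6 (3.95 ± 0.39, adjusted p = 5.0e-06). Isg15, a ubiquitin-like modifier, was at 330, 161 and 62.4 RPKM in Met1 and 19.0 to 32.7 RPKM in the other lines (2.57 ± 0.36, adjusted p = 1.1e-04). At both genes the isolations of Met1 were further apart than those of any other line, and none overlapped another line. The list median was 3.75 in isolation 1, 2.60 in isolation 2 and 1.33 in isolation 3, and 24, 23 and 18 members lay above every library of the other lines. Irf7, a regulator of the response, spread from 12.4 to 192 RPKM in Met1 and was at 2.98 RPKM or less elsewhere.

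The call did not rest on 1 isolation. Without isolation 1, 21 of 22 tested members rose, without isolation 2, 21 of 22, and without isolation 3, 23 of 23. Within the second title code, which leaves isolation 3 of Met1, 13 of 19 rose. The ligand Ifnb1 was listed at 0.0257 to 0.202 RPKM in Met1 and at 0.0644 RPKM or less in the others, below the level tested, and the receptor chain Ifnar1 was lower in Met1 (7.66 to 8.55 RPKM) than in every other library (9.5 to 11.2 RPKM), a difference of -0.33 whose call was lost within the second title code (adjusted p = 0.44). Genes of MHC class I and antigen processing rose in Met1 at 10 of 12, where 29.0% of all genes were higher. Within the second title code, 1 of 12 was called. H2-K1 was at 274, 162 and 124 RPKM in Met1 and 57.5 to 106 RPKM elsewhere. In M6, 15 of the 24 interferon-stimulated genes fell (30.8% of all genes did), and in 6DT1 11 fell (31.9% of all genes; 4 of 19 within the second title code). In Mvt1, 8 fell and 2 rose, a share of falls below the 38.5% of all genes.

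Promoters of Ifit1, Isg15 and Rsad2 are shown as members of this group that hold the core of the interferon-stimulated response element. They are the 250 bases before the RefSeq start in GRCm38.p6, chr19:34640639-34640888 on the plus strand, chr4:156200819-156201068 on the minus strand and chr12:26456453-26456702 on the minus strand. Capitals mark GAAA, any 2 bases and GAAA or, on the other strand, TTTC, any 2 bases and TTTC, and in Isg15 they join 3 overlapping matches.
Ifit1: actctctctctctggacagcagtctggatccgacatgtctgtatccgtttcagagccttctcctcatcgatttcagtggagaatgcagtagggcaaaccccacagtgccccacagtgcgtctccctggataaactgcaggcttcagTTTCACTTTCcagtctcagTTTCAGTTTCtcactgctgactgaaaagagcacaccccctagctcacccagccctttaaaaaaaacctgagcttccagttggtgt
Isg15: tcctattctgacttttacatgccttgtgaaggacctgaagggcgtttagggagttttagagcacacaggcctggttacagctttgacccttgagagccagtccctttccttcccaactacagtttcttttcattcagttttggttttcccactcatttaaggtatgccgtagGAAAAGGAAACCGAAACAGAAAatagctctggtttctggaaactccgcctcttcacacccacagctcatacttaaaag
Rsad2: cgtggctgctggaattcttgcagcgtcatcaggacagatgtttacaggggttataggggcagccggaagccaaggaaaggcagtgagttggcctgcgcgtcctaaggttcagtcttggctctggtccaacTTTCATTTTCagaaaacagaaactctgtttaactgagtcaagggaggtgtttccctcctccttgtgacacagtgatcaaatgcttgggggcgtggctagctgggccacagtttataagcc
Rsad2, the antiviral enzyme viperin, was at 14.8, 11.0 and 4.39 RPKM in Met1 and 0.0834 to 2.72 RPKM in the other lines. The motif was in 8 of 18 list genes with a listed promoter and in 2.98% of all 32851.

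**Figure D3:**
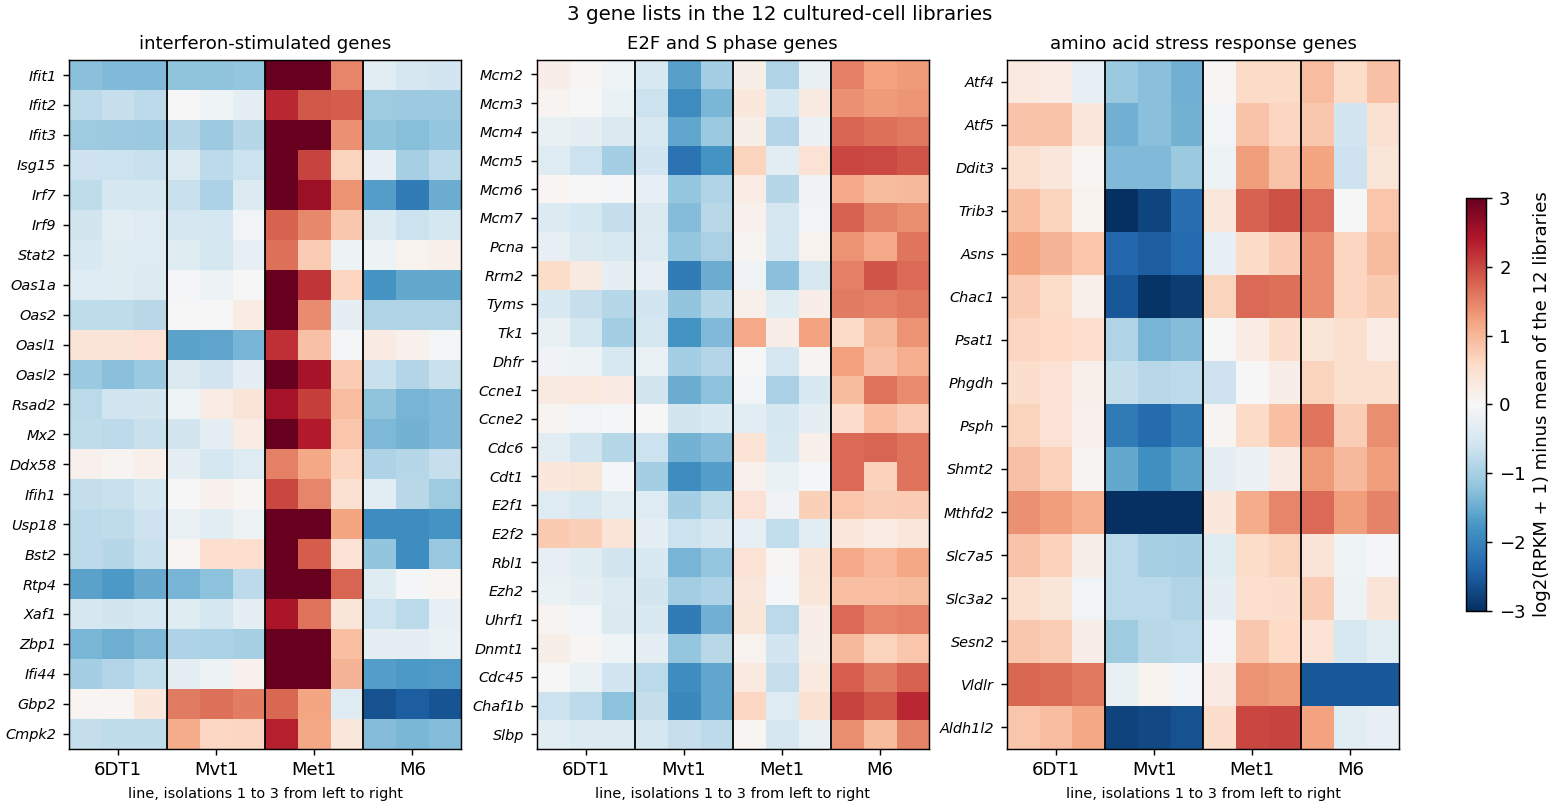
Heat map of log2(RPKM + 1) minus the mean of the 12 libraries for the interferon-stimulated, E2F and S phase, and amino acid stress genes, with 1 column per library and 1 interferon-stimulated gene not drawn. The interferon-stimulated genes are high in the 3 Met1 libraries, with list medians against the other lines of 3.75, 2.60 and 1.33, the E2F genes are high in M6 and the amino acid stress genes are low in Mvt1.

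Ltbp2, a gene of a matrix protein, led the higher genes of Met1. It was at 100, 75.3 and 78.4 RPKM in Met1 and 3.82 RPKM or less elsewhere (5.73 ± 0.14, adjusted p = 4.9e-11). The cytokine Il17b (81.2, 34.8 and 44.0 RPKM), the ciliary factor Foxj1 (54.6, 43.5 and 45.2 RPKM) and the chemokine Cxcl14 (28.2, 19.9 and 35.2 RPKM) were at 1.62 RPKM or less in the other lines. Of 22 tested collagen and matrix genes, 16 rose and 2 fell (median 1.79), where 29.0% of all genes were higher and 25.6% lower. Within the second title code the counts were 8 and 1 of 17. Col4a1, a basement membrane collagen, was at 22.6 to 33.3 RPKM against 0.00305 to 4.42 RPKM. Of 13 Wnt genes, 11 rose and 0 fell in Met1 (median 1.30), against the same shares of all genes. Within the second title code, 5 of 7 rose. Axin2, a feedback target of the pathway, was at 2.10, 2.18 and 1.76 RPKM in Met1 and 0.0150 RPKM or less elsewhere, and the ligand Wnt10a at 8.46 to 10.4 RPKM against 2.47 RPKM or less. Ccnd1, cyclin D1, was at 222, 289 and 524 RPKM in Met1 and 44.3 to 73.2 RPKM elsewhere. Pdgfrb, a receptor known from fibroblasts and pericytes, was at 38.2, 61.3 and 13.5 RPKM in Met1 and 0.894 RPKM or less elsewhere. The summed level of 8 fibroblast markers was 35.1 to 154 RPKM in Met1 with 4 of the 8 at 1 RPKM or more in every library, against 1.10 to 6.57 RPKM in the other lines, and the part of such cells in these results was not tested.

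A pair of cavins, coat proteins of the membrane pits called caveolae, were among the 10 largest falls in Met1. Ptrf, the first, was at 0.668, 0.620 and 0.555 RPKM in Met1 and 26.9 to 155 RPKM in the other lines (-5.72 ± 0.18, adjusted p = 2.9e-10). Prkcdbp, a second cavin, was at 0, 0.209 and 0.0562 RPKM in Met1 and 7.67 to 96.8 RPKM elsewhere. Met1 overlapped no other line at either gene. Cav1, the caveolin itself, was lower in M6 (7.43 to 10.9 RPKM) than in Met1 (22.9 to 34.8 RPKM), and at 121 to 188 RPKM in 6DT1 and Mvt1. The largest fall in Met1 was of Crip1, a small LIM-domain protein, at 0.260, 0.720 and 0.447 RPKM against 85.8 to 362 RPKM (-7.10 ± 0.23, adjusted p = 5.3e-10). Krt19 was at 0.0115 to 0.184 RPKM in Met1, 4.74 to 17.5 RPKM in 6DT1 and Mvt1 and 50.8 to 62.3 RPKM in M6. The chaperone Hspb1 was at 0.265 to 0.695 RPKM in Met1 and 20.1 to 135 RPKM elsewhere.

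M6 was set apart at more genes than the other lines, 531 higher (4.75%) and 270 lower (2.41%). Basal keratins led the higher genes. Krt17 was at 301, 202 and 202 RPKM in M6 and 0.374 RPKM or less in the other 9 libraries (7.65 ± 0.13, adjusted p = 2.4e-12). Krt6a was at 131, 261 and 149 RPKM against 0.225 RPKM or less. Krt14 was at 217, 676 and 825 RPKM in M6, 99.5, 29.0 and 61.2 RPKM in Met1 and 0.524 RPKM or less in 6DT1 and Mvt1. Of 11 tested basal genes, 9 rose and 2 fell in M6 (median 4.51) and 7 were set apart. In 6DT1 10 fell and in Mvt1 9 fell (6 and 6 of 9 within the second title code). Of all genes, 38.1% were higher in M6, and 31.9% and 38.5% lower in 6DT1 and Mvt1. Luminal genes rose beside the basal genes in M6, 18 of the 21 keratin and junction genes.

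Replication genes were raised as a group in M6. All 24 E2F and S phase genes rose (median 1.77) and 17 were set apart. Of 16 mitosis genes, 16 rose (median 1.25), where 38.1% of all genes did. Within the second title code, 24 of 24 and 16 of 16 rose, with medians of 1.80 and 1.5. Tyms, which makes thymidylate, was at 51.2, 49.2 and 51.8 RPKM in M6 and 6.73 to 19.3 RPKM elsewhere (2.07 ± 0.15, adjusted p = 1.3e-07). Ccne1, cyclin E1, was at 10.5, 17.6 and 14.9 RPKM in M6 and 1.13 to 6.28 RPKM elsewhere. The brakes did not move with them in one direction. Cdkn2c (24.7 to 30.3 RPKM) and Cdkn2a were shared with Met1. Cdkn1a, the p53 target p21, spread from 22.2 to 112 RPKM in M6 (-0.16 ± 0.40, adjusted p = 0.73), and Rb1 was at 3.76 to 6.42 RPKM and was not called there (0.17 ± 0.14, adjusted p = 0.27). The intervals of these last differences allow changes of either sign.

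The helicase subunits Mcm5 and Mcm6 are the list members whose promoters hold the E2F consensus searched here. Mcm5 was at 76.2, 75.4 and 70.3 RPKM in M6 and 3.18 to 29.7 RPKM elsewhere (2.60 ± 0.30, adjusted p = 1.4e-05), and Mcm6 at 58.4, 51.2 and 52.7 RPKM against 11.2 to 30.5 RPKM. The windows are chr8:75109259-75109508 on the plus strand and chr1:128359706-128359955 on the minus strand, 250 bases before the RefSeq start in GRCm38.p6. Capitals mark TTTGGCGC or, on the other strand, GCGCCAAA.
Mcm5: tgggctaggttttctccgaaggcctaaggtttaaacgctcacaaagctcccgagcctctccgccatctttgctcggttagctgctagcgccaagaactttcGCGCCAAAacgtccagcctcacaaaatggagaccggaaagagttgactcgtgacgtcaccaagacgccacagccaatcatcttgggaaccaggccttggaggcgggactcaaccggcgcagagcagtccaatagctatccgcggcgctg
Mcm6: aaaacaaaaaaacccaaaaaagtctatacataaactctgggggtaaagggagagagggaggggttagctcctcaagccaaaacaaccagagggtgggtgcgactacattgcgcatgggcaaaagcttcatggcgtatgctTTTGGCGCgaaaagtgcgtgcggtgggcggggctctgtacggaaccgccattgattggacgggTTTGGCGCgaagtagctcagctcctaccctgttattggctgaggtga
The motif was in 2 of 21 list genes with a listed promoter and in 0.417% of all 32851.

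M6 also held inflammatory signals at levels the other lines did not reach. The neutrophil chemokine Cxcl5 was at 131, 191 and 67.3 RPKM in M6 and 2.51 RPKM or less elsewhere (5.79 ± 0.28, adjusted p = 8.4e-09), and Cxcl16 was at 65.7, 30.1 and 22.0 RPKM against 0.734 RPKM or less. Of 13 tested cytokines, 6 rose and 1 fell in M6, where 38.1% of all genes were higher and 30.8% lower, and the 6 were set apart, as 4.75% of all genes were. They include Il6 (51.7, 22.9 and 5.49 RPKM), Il1a (27.9, 13.1 and 6.35 RPKM) and Tnf (14.3, 7.97 and 5.45 RPKM), each at 0.726 RPKM or less in every other library. The isolations of M6 differed widely at these genes but none overlapped another line. Among the lower genes, Igfbp4, which binds insulin-like growth factors, was at 0.887, 0.801 and 0.726 RPKM in M6 and 48.1 to 222 RPKM elsewhere (-6.25 ± 0.15, adjusted p = 1.3e-11). Cadm1, an adhesion molecule, was at 0.324 to 0.529 RPKM against 17.8 to 79.9 RPKM, and the drug efflux pump Abcg2 at 0.0170 to 0.0380 RPKM against 3.30 to 44.3 RPKM.

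Glycolysis followed the main division. Of 18 tested glycolysis and hypoxia genes, 16 rose in 6DT1 (median 0.91) and 13 in Mvt1 (0.89), while 15 fell in Met1 (-0.64) and 15 in M6 (-1.16). In the opposite direction, 1 fell in 6DT1 and 1 in Mvt1, 1 rose in Met1 and 0 rose in M6. The shares of all genes were 25.8% and 25.3% higher in 6DT1 and Mvt1, and 25.6% and 30.8% lower in Met1 and M6. Pfkp, a phosphofructokinase, was at 90.9 to 94.5 RPKM in 6DT1, 58.7 to 61.4 RPKM in Mvt1, 9.00 to 11.0 RPKM in Met1 and 4.49 to 5.48 RPKM in M6. The 4 lines did not overlap. Hypoxia markers did not all follow. Bnip3, a mitophagy receptor, was at 35.0 to 50.3 RPKM in 6DT1 and Mvt1, 10.1 to 11.9 RPKM in Met1 and 1.60 to 3.28 RPKM in M6, but the carbonic anhydrase Car9 was at 5.22 to 9.21 RPKM in Met1 and 0.651 RPKM or less elsewhere. Within the second title code, 8 of 17 glycolysis and hypoxia genes rose in 6DT1 and 6 in Mvt1, while 2 fell in Met1 and 10 in M6, so most of the Met1 calls were lost there. Cholesterol and fatty acid synthesis ran the other way, with 12 of 21 genes lower in 6DT1, 15 lower in Mvt1, 11 higher in Met1 and 13 higher in M6. The shares of all genes were 31.9%, 38.5%, 29.0% and 38.1%. The second title code alone gave 1 lower in 6DT1, 5 lower in Mvt1 and 11 higher in M6, and the Met1 calls were lost.

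**Figure D4:**
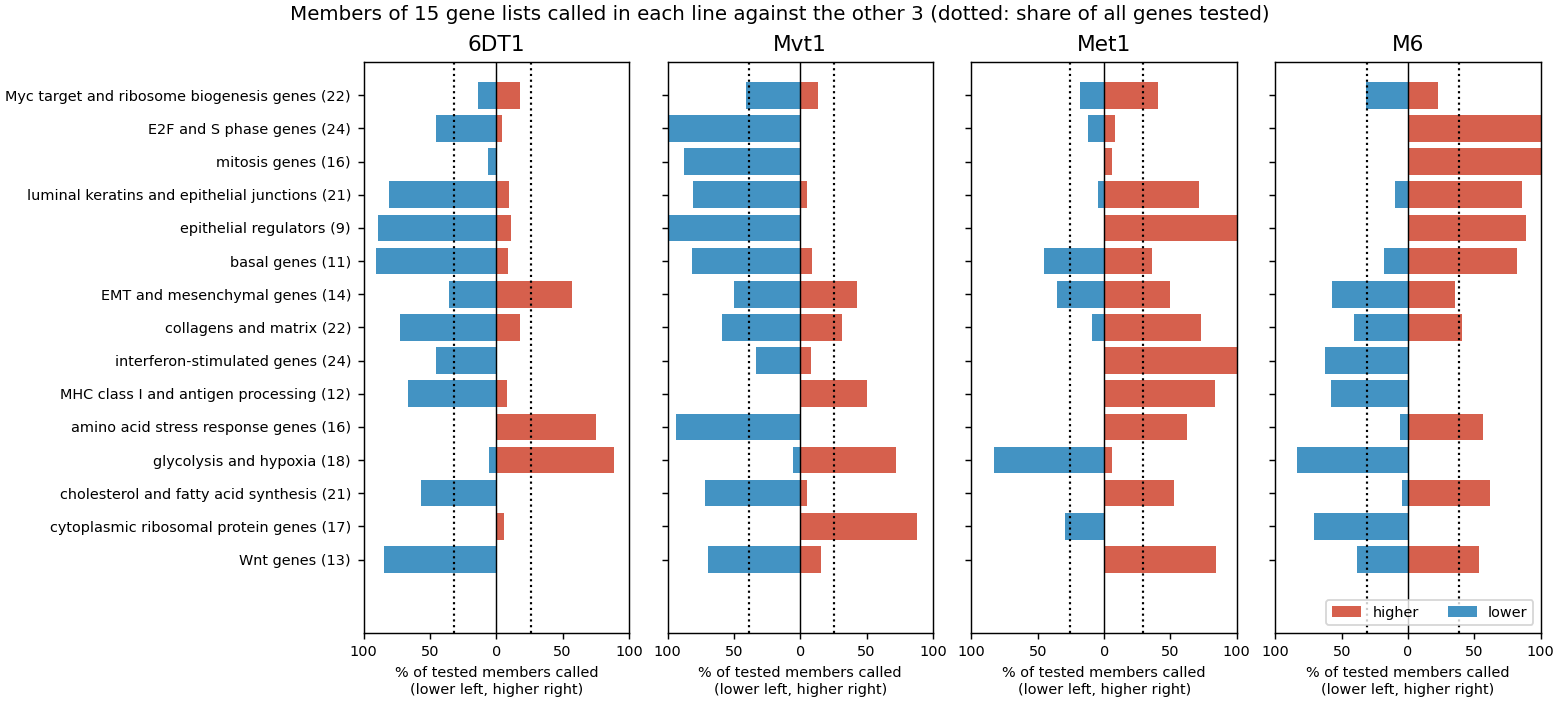
Percent of the tested members of 15 gene lists that were called higher (right) or lower (left) in each line against the other 3; dotted lines give the percent over all tested genes. Bars reach 100% for the interferon-stimulated genes (24 of 24) and epithelial regulators (9 of 9) on the higher side in Met1, the E2F (24 of 24) and mitosis genes (16 of 16) on the higher side in M6, and the E2F genes (24 of 24) and epithelial regulators (9 of 9) on the lower side in Mvt1.

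Orthotopic primary tumours grown from the same lines (6 each of 6DT1, Mvt1 and M6, and 7 of Met1, with the host strain labelled FVB and, for M6, REAR) were used to see which of these differences were also present in tumours. They hold host tissue as well as tumour cells. In 1 Met1 tumour the title names a lung metastasis while the other labels name a primary tumour. Before the results, 2 tumour libraries stood apart. The library labelled Mvt1 tumour 5 had Myc at 35.7 RPKM, against 354 to 412 RPKM in the other 5, with Mtap at 195 RPKM against 1.45 to 2.08 RPKM and Epcam at 67.3 RPKM against 0.376 to 1.70 RPKM. The library labelled Met1 tumour 4 had the T cell gene Cd3e at 36.9 RPKM, against 1.58 RPKM or less in the other 6, with Epcam at 49.5 RPKM against 277 RPKM or more. Results are given with all tumours and without these 2.

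The genes set apart in culture were called the same way in the tumours of M6 at 413 of 500 tested higher genes (82.6%; 85.5% without the 2 tumours) and 236 of 268 lower genes (88.1%; 89.9%). In Met1 they were called so at 236 of 344 higher (68.6%; 70.8%) and 134 of 147 lower genes (91.2%; 95.9%). In 6DT1 the counts were 102 of 145 higher (70.3%; 78.2%) and 57 of 125 lower (45.6%; 51.2%), and in Mvt1 66 of 146 higher (45.2%; 57.5%) and 39 of 116 lower (33.6%; 44.0%). Of all genes tested in tumours, 28.5% were called higher and 26.0% lower in M6 (30.9% and 29.3% without the 2), 24.4% and 28.8% in Met1 (28.0% and 34.0%), 19.3% and 18.5% in 6DT1 (24.1% and 21.8%), and 17.1% and 21.5% in Mvt1 (22.1% and 26.5%). The set-apart counts are over genes tested in both culture and tumours. Over all such genes, with all tumours, 30.1% were called higher and 24.6% lower in M6, and 24.7% and 30.2% in Met1. The shares were 19.5% and 18.8% in 6DT1, and 17.2% and 22.0% in Mvt1. Few set-apart genes were called the opposite way. Their counts were 0 to 9 in each line and direction with all tumours and 0 to 16 without the 2.

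**Figure D5:**
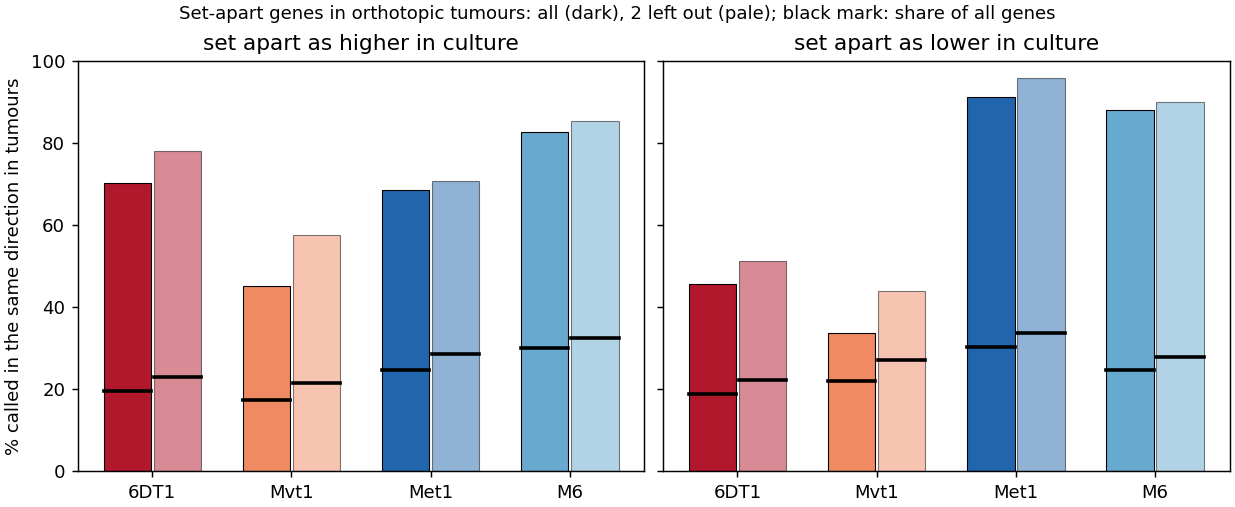
Percent of the genes set apart in culture that were called in the same direction in orthotopic tumours, for each line and direction; dark bars use all 25 tumours, pale bars leave out the 2 that stood apart, and black marks give the percent over all genes tested in both. Lower genes of Met1 (91.2%) and M6 (88.1%) stand highest and lower genes of Mvt1 (33.6%) lowest, and all bars exceed their mark.

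Gene groups were carried into tumours to different degrees. In M6 tumours, all 24 E2F and S phase genes (median 1.39) and all 16 mitosis genes (median 1.30) were higher, where 28.5% of all genes were. Krt17 was at 34.1, 445 and 887 RPKM (lowest, median and highest of 6), against 6.48 RPKM or less in every tumour of the other lines. In Met1 tumours, 4 of the 24 interferon-stimulated genes were called higher (6 without the 2 tumours), against 24.4% and 28.0% of all genes, and the line difference of 21 of the 24 (20) differed between tumours and culture in a joint fit, where 26.7% of all genes did. Ifit1 was at 3.85, 10.5 and 32.6 RPKM in Met1 tumours and its difference from the other tumours was 0.73 (adjusted p = 0.16). In Mvt1 tumours, 5 of 16 amino acid stress genes were lower (21.5% of all genes), and 15 of the 16 differed from culture, where 19.6% of all genes did. Asns was at 7.12, 11.2 and 15.4 RPKM in Mvt1 tumours and at 16.8, 22.1 and 36.2 RPKM in 6DT1 tumours. In 6DT1 tumours, 17 of 21 luminal keratin and junction genes were lower, where 18.5% of all genes were. In 6DT1 tumours 18 of 22 Myc target and ribosome biogenesis genes were higher (17 without the 2 tumours; median 0.56), where 19.3% of all genes were, and in Mvt1 tumours 6 (12), where 17.1% were. In Met1 tumours 16 were lower (16), where 28.8% of all genes were. In M6 tumours 9 were lower and 1 higher (11 and 1), where 26.0% of all genes were lower. The line difference changed between culture and tumours at 5 of the 22 in 6DT1, 6 in Mvt1, 13 in Met1 and 3 in M6 (14.2%, 19.6%, 26.7% and 18.1% of all genes).

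In Mvt1, Axl was low in the cultured cells but not in the tumours. It was near 0 in the 3 cultured libraries and at 49.8, 61.8 and 95.8 RPKM (lowest, median and highest of 6) in the tumours, above the mean of the other tumours by 1.72 (adjusted p = 4.2e-05; 1.70 without the 2 tumours, adjusted p = 1.0e-05). Tumours of 6DT1 overlapped those of Mvt1, with Axl at 38.85, 51.4 and 57.45 RPKM. Tumours of Met1 and M6 were lower, with medians of 9.46 and 15.1 RPKM. The difference between the contrasts was 6.27 ± 0.42 (adjusted p = 6.8e-12; 14.2% to 26.7% of genes differed so by line). Pdgfrb, high in cultured Met1, was at 0.731, 3.23 and 10.0 RPKM in Met1 tumours and below the other tumours by 1.18 on this scale, with a difference between the contrasts of -5.93 ± 0.45 (adjusted p = 4.1e-11). Acsbg1, an acyl-CoA synthetase that was low in cultured Mvt1, was at 8.00, 14.6 and 18.1 RPKM in Mvt1 tumours (1.29, adjusted p = 0.0069). Its difference between the contrasts was 4.57 ± 0.61 (adjusted p = 2.9e-06). Tumours of 6DT1 (6.44 to 15.5 RPKM) and M6 (2.06 to 42.3 RPKM) overlapped those of Mvt1 at Acsbg1. Met1 tumours were at 1.14 RPKM or less. Host cells add to tumour values and their part in these differences was not tested.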

How the data were processed

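RNA-seq of 12 cultured libraries (6DT1, Mvt1, Met1 and M6, 3 isolations each) and of 25 orthotopic primary tumours of the same lines was used, from a table whose 335 columns match the 335 samples. Per the labels' protocols, TriPure was used to isolate RNA and a HiSeq2500 (TruSeq v4 chemistry) to sequence the libraries. The submitters' processing notes name TopHat, DESeq2 and the build mm9, with no versions or roles. Values are RPKM as deposited by the authors, and how the gene lengths were set is not given in the sources used here, so levels were not compared between genes. Because low RPKM values are whole multiples of 1 read, the reads behind them were recovered. The low values of 7526 genes were checked to be within 0.001 read of whole counts. With a wider tolerance, 15777 of 15779 genes above 0 in 3 or more cultured libraries came out as whole counts of reads in every library. Intervals for single values were not computed, and the reads are not counted with molecular identifiers.

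Genes at RPKM 1 or more in 3 or more of the 12 libraries (6 or more tumours for tumours) were tested with limma 3.58.1 in R 4.3.3 (trend and robust moderation) on log2(RPKM + 1), each line against the equal-weight mean of the other 3, with Benjamini-Hochberg adjustment over all tested genes. The 4 contrasts share the same libraries and are not independent. The difference between tumours and culture was tested as an interaction in 1 joint fit. On simulated data for M6 with 11189 genes, 48 of 100 genes changed by 0.5 and 86 of 100 changed by 1 on the log2 scale were recovered, with 9 false calls. Few genes were changed there and the noise was independent and normal, while 4268 genes were called higher and 3451 lower in M6. The simulated counts therefore do not give the recovery or false calls of the real contrast.

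Members and the 38 gene lists were chosen with earlier results of these data known. Genes named are the 10 largest set-apart genes each way with a mean of at least 5 RPKM (predicted genes left out). The driver genes and the cell cycle list (brakes, Mdm2 and cyclins) are named too. From each other list, up to 6 genes with the smallest p are named. Genes outside this rule (Mtap outside Met1, Klhl9, Gm13275, Mir31, Tusc1, Mllt3, Plaa, Epcam, Cldn4, Krt8, Krt18, Vim, Zeb1, Snai2, Mcm5, Mcm6, Isg15, Rsad2, Irf7, Ifnb1, Ifnar1, Atf4, Cav1, Lcp1, Il2rg, Ptprc, Ikzf1, Itgal, Hmgcs1, and Cd3e in tumours) were chosen after their values were seen, as were the promoters. A few genes that this rule names are not reported here. Promoters came from RefSeq (GRCm38.p6), motifs were searched on both strands, and no coordinates of the deposited build were used. For every motif, list members were counted by gene and the background by promoter (32851 promoters of 27025 genes), so these shares differ in unit. Alternatives were another pseudocount, filter, scaling and moderation, each library left out, a replicate block, the title code as a term or as a subset, all 7 cultured lines in the fit, and, added after seeing the data, voom on recovered reads and tumours without 2 that stood apart.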

Additional observations from a re-analysis of the deposited data

Results flagged for a closer look

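In orthotopic tumours, single libraries stood far from the others of their line, by Dixon's test at the 95% level, which chance alone passes in about 1 of 20 groups. The library labelled Mvt1 tumour 5 was lowest for Myc at 35.7 RPKM and highest for Mtap at 195.0 RPKM, Klhl9 at 13.0 RPKM, Epcam at 67.3 RPKM and Cdh1 at 8.66 RPKM, while its Cdkn2a was at 0.336 RPKM, within the range of the other Mvt1 tumours. The library labelled Met1 tumour 4 was lowest for Cdkn2a at 37.0 RPKM and highest for Axl at 27.2 RPKM, Pdgfrb at 10.0 RPKM, Acsbg1 at 1.14 RPKM, Arhgdib at 513.0 RPKM and Itgb7 at 33.7 RPKM. The library labelled 6DT1 tumour 1 was highest for Cdkn2a at 1.07 RPKM, Mtap at 4.9 RPKM, Klhl9 at 9.64 RPKM and Epcam at 1.87 RPKM. Met1 tumour 5 was highest for Krt17 at 6.48 RPKM and 6DT1 tumour 6 for Asns at 36.2 RPKM.

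The line difference changed between culture and tumours for 11 of the 17 genes followed in tumours, in at least 1 line, tested in the joint fit (adjusted p under 0.05) on the log2(RPKM + 1) scale. The change is tumours minus cultured cells. For Axl it was 6.27 in Mvt1, -3.72 in Met1 and -1.64 in M6. For Pdgfrb it was 2.35 in 6DT1, 1.65 in Mvt1, -5.93 in Met1 and 1.93 in M6, and for Acsbg1 it was 4.57 in Mvt1, -2.3 in Met1 and -1.93 in M6. For Arhgdib it was -3.97 in 6DT1, 3.4 in Met1 and 2.21 in M6. In Met1 it was -3.22 for Ifit1, -2.12 for Rsad2, -2.53 for Mtap, -1.18 for Klhl9, -1.51 for Cdh1 and -2.28 for Il17b, which also changed by 1.36 in M6. For Asns it was 2.32 in Mvt1 and -1.78 in M6. Tumours hold host cells, and their part was not tested.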

How the results depend on the processing

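Of 312 differences of named genes, 308 were called, none reversed under any of the 22 alternatives run on the cultured libraries, and 273 were called in every alternative that tested them. Counts of called genes moved by over 1.5 times under 2 alternatives, and the cause was not tested beyond the fewer libraries of the first. Within the second title code, 778 genes were higher and 1005 lower in 6DT1, 845 and 1601 in Mvt1, 1007 and 740 in Met1, 1814 lower in M6, and 118 and 83 in Mvt1 against 6DT1. With all 7 cultured lines in the fit, the counts were 1570 and 2044 in 6DT1, 1642 and 2647 in Mvt1, 1885 and 1530 in Met1, 2274 lower in M6, and 607 and 704 in Mvt1 against 6DT1. Leaving out 1 library gave 2297 to 2993 higher and 2943 to 3487 lower in 6DT1, 2387 to 2926 and 3643 to 4236 in Mvt1, 2591 to 3354 and 2400 to 2831 in Met1, 3848 to 4294 and 3162 to 3381 in M6, and 1242 to 1863 and 1504 to 2372 in Mvt1 against 6DT1. The isolation numbers did not pair the libraries across all lines (6 of 18 same-numbered pairs had r over 0.1, from -0.36 to 0.36). Those 6 were all among 6DT1, Mvt1 and Met1, whose isolations share title codes by number, and every pair with M6 was negative. Of 12 libraries, 6 correlated best with their own number. With a replicate block on that number, 2801 genes were higher and 3515 lower in 6DT1, 2802 and 4247 in Mvt1, 3160 and 2822 in Met1, 4208 and 3421 in M6, and 1694 and 2109 in Mvt1 against 6DT1. Rescaling by median ratios shifted the median of all genes by at most 0.10 in size (-0.10 in M6). RPKM at 0 limits what can be said of low genes.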
